A study of Mus musculus with 12 samples.

Results

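The 6 genes described here encode the muscarinic acetylcholine receptors Chrm1, Chrm2, Chrm3 and Chrm4 and the adenosine receptors Adora1 and Adora2a of the mouse striatum. They were taken by gene symbol from a table of 53465 genes, and all 6 were found and passed the filter on low counts that left 17796 genes for testing. Acetylcholine and adenosine act on striatal neurons through receptors coupled to G proteins. Chrm1 and Chrm3 couple to Gq and phospholipase C, Chrm2, Chrm4 and Adora1 to Gi and Go, which lower cAMP, and Adora2a to Gs and Golf, which raise it. In the striatum Chrm4 is known from projection neurons of the direct pathway, Adora2a from those of the indirect pathway, Chrm1 from both, and Chrm2 from cholinergic interneurons, whose axons release the acetylcholine.

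Total RNA labelled as from striatal cells was sequenced in 12 libraries of 4 genotypes, 3 libraries each, all on a background labelled C57/BL6. Q175HD/SUMO-KO animals carried the neo-deleted Q175 knock-in of the huntingtin gene Htt, a model of Huntington's disease, together with a knockout of SUMO-1, a small ubiquitin-like protein that is attached to other proteins. SUMO-KO animals carried the knockout alone, Q175HD animals the knock-in alone, and WT animals neither. The labels used here name no Cre or tissue driver and give neither age, sex, zygosity nor whether each library came from its own animal. The p-values below therefore measure the spread between these libraries, which may be technical in part.

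Reads assigned to genes summed to between 9379594 and 17226419 per library, and CPM below are counts scaled to a common library size (read counts over TMM library size). Markers of the labelled tissue were present in every library, with Ppp1r1b at 405 to 1227 CPM, Drd1 at 122 to 353 CPM and Drd2 at 59.5 to 234 CPM. Some libraries stood apart. The 20 cortical excitatory neuron markers summed to 811 to 861 CPM in Q175HD/SUMO-KO, 868 to 1029 CPM in SUMO-KO and 764 to 900 CPM in Q175HD, against 1136 to 1991 CPM in WT libraries. Within each genotype the 10 choroid plexus markers spread more widely, from 82.2 to 5065 CPM in Q175HD/SUMO-KO and from 61.6 to 2291 CPM in SUMO-KO. They summed to 84.3 to 5121 CPM in Q175HD and 63.2 to 4127 CPM in WT. Library 2 of Q175HD/SUMO-KO was lowest of its group for projection neuron genes, with 145 CPM of Rasd2 against 340 and 353 CPM in libraries 1 and 3. Xist was abundant in library 2 of the Q175HD/SUMO-KO, SUMO-KO and WT groups and in no Q175HD library. It had 18092 to 19854 reads in the former and 2 to 51 in every other library. The libraries of those groups therefore did not all come from the same animal, and for Q175HD this is not known.

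In the GRCm38 annotation used (GENCODE M21), Chrm1 lies at chr19:8663789-8683587 and Chrm2 at chr6:36388084-36528414, both on the plus strand. Chrm3 lies on the minus strand at chr13:9875486-10360847, and its span holds genes on both strands. Chrm4 lies at chr2:91927249-91928688 on the plus strand as 1 exon of 1440 bases, Adora1 at chr1:134199223-134235431 on the minus strand and Adora2a at chr10:75316877-75334784 on the plus strand. The strand used for counting is not given in the sources used here, so reads from genes on the opposite strand could be counted with a receptor. Genes on the opposite strand overlap exons of Adora1 (Mybph), Chrm2 (9330158H04Rik), Chrm3 (Gm26861) and Chrm1 (Gm22820). Counted as whole genes, Mybph had 3 to 13 reads per library and 9330158H04Rik had 6 to 18. Gm26861 and Gm22820 had at most 1 read each per library. The receptors had 109 reads or more in every library. Reads in the shared stretches were not counted separately, so these counts cannot show how many reads a receptor may have gained from them.

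The RefSeq promoter table matched 4 of the 6 genes (not Chrm1 and Adora2a), and their promoters, 250 bases before to 50 bases after the start, are shown. Chrm4 and Chrm3 were called against WT below, Chrm3 not with a covariate for cortical marker genes. Chrm2 and Adora1 are shown beside them, and Adora2a, also called below, has no window. A relation between motifs and calls was not tested, and 4 windows cannot show one. Adora1 has 2 starts in the table, and the first is shown. The RefSeq start of Chrm4 lies upstream of its annotated exon, which begins at chr2:91927249, so the window shown does not adjoin that exon. Sequences are from RefSeq (GRCm38.p6), read 5′ to 3′ on the strand of the gene, and capitals mark matches, on either strand, to the motifs named after them.
Chrm4, chr2:91921939-91922238, plus strand: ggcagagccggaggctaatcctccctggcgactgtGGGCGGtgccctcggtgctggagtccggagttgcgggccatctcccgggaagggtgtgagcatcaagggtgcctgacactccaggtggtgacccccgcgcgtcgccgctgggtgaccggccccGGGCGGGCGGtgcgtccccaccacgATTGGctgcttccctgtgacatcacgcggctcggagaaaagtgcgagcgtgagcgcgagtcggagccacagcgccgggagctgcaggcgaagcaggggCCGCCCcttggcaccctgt
Chrm3, chr13:10360754-10361053, minus strand: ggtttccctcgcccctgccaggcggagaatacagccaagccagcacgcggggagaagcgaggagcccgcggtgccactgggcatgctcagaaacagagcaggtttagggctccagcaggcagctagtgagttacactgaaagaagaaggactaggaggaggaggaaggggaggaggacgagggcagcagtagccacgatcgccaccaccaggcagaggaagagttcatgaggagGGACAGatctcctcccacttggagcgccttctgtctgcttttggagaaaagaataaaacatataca
Chrm2, chr6:36387834-36388133, plus strand: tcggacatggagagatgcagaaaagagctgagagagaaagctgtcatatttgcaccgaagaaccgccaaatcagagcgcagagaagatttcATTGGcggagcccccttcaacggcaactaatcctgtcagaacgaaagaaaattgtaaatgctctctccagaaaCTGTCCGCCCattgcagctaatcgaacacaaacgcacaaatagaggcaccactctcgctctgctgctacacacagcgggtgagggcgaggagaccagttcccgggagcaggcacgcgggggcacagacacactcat
Adora1, chr1:134235408-134235707, minus strand: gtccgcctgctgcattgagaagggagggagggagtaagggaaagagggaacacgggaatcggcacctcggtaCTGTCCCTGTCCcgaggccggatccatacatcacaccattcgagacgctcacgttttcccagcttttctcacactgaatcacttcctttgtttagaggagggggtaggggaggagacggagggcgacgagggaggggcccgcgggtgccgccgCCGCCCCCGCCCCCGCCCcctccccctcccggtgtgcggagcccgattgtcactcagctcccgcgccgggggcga

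The GC box GGGCGG, which 35.7% of the 32851 promoters in the table hold, matched 4 times in the Chrm4 promoter, 3 times at the first start of Adora1, once in the Chrm2 promoter and nowhere in that of Chrm3. In Chrm4, 2 of the matches overlap. The CCAAT box CCAAT, held by 37.4% of promoters, matched once in Chrm4 and once in Chrm2. The letters GGACAG, one end of the element bound by the neuronal repressor REST and held by 22.2% of promoters, matched once in Chrm3, once in Chrm2, where the match overlaps the GC box, and 2 times at the first start of Adora1. The second start of Adora1 (chr1:134234807-134235106) had no match to any motif searched. The other end, TTCAGCACC (0.371% of promoters), the TATA box TATAAA (13.6%), the cAMP response element TGACGTCA (1.79%), its core TGACG (20.8%) and the E-box CACGTG (7.15%) had no match in these windows. The Chrm4 window was 70.7% G and C, against a median of 52.7% over all promoters.

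Levels of different genes were compared as the authors' deposited TPM (transcripts scaled to a fixed library total), which divide by gene length. For Chrm4 that length was the 1440 bases of coding sequence in the annotation, against 3062 to 6487 exonic bases for the others, so its TPM may be raised relative to theirs. Over the 12 libraries the median level was 158 TPM for Adora2a, 89.3 TPM for Chrm4, 69.4 TPM for Adora1, 58.7 TPM for Chrm1, 8.82 TPM for Chrm2 and 5.34 TPM for Chrm3. Adora2a was the highest of the 6 in 11 libraries, and in library 2 of Q175HD/SUMO-KO, at 56.5 TPM, it stood below Adora1. Chrm4 stood above Adora1 in no Q175HD/SUMO-KO library and 1 of 3 Q175HD libraries, against 3 of 3 SUMO-KO and 3 of 3 WT libraries. Chrm3 stood above Chrm2 in the 3 WT libraries and in none of the others. The ratio of the highest to the lowest library was 7.68 for Chrm3 and 5.16 for Adora2a, against 1.73 for Chrm1, 1.82 for Adora1, 2.08 for Chrm2 and 2.76 for Chrm4.

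**Figure D1:**
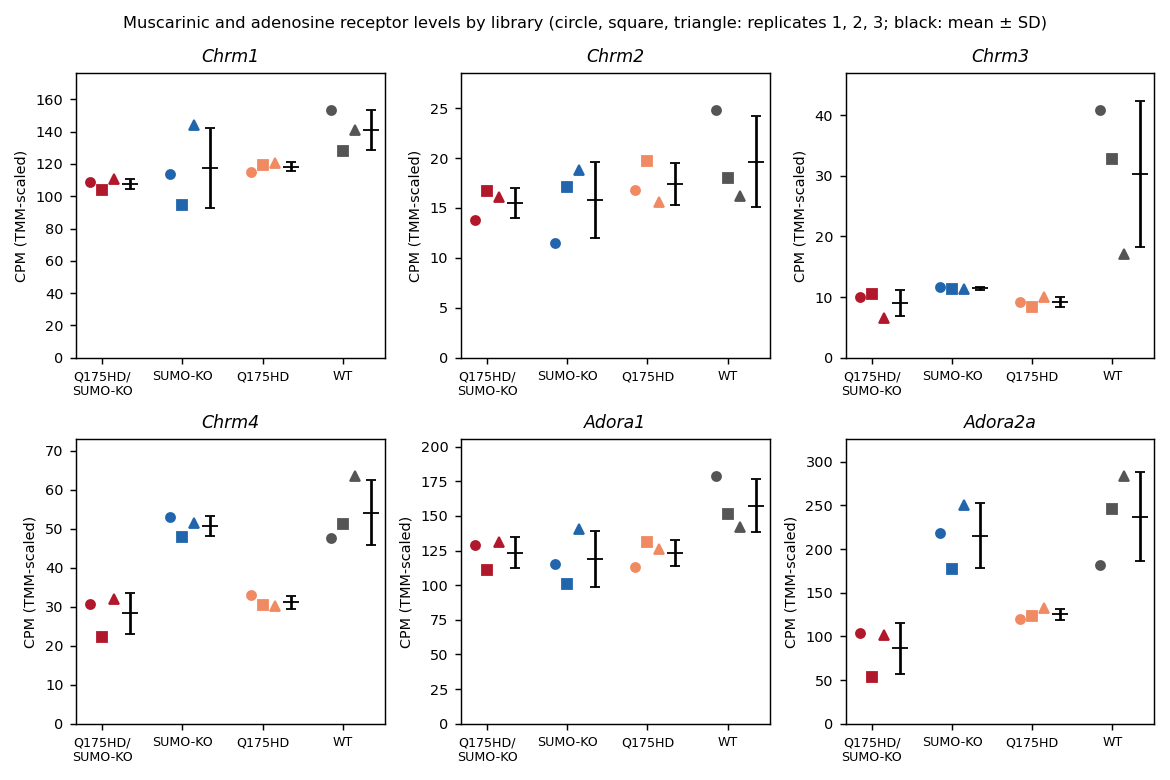
CPM of each receptor gene (vertical axes, scaled by TMM, starting at 0) in the 12 libraries, by genotype, with the mean and SD of each group in black. Chrm4 and Adora2a are low in both groups that carry the knock-in, and Chrm3 is high in WT alone, where its 3 libraries spread from 17.1 to 40.8 CPM.

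Counted by genotype, receptors fell with the knock-in and none rose. In Q175HD against WT, 2 of the 6 genes passed the test and both were lower (Chrm3 and Chrm4), where 3.93% of all genes tested passed in either direction and 2.82% were lower. In Q175HD/SUMO-KO against SUMO-KO, 2 passed and were lower (Chrm4 and Adora2a), beside 7.81% of all genes in either direction and 4.61% lower. Against WT, Q175HD/SUMO-KO libraries had 3 lower (Chrm3, Chrm4 and Adora2a), beside 8.44% of all genes in either direction and 5.07% lower, although Chrm3 was not called there with a covariate for cortical marker genes or without WT libraries 1 and 2. In Q175HD against SUMO-KO, 1 was lower (Chrm4), beside 8.96% of all genes in either direction and 5.45% lower. Averaged over SUMO-1 status the knock-in lowered 3 (Chrm3, Chrm4 and Adora2a), beside 16.9% of all genes in either direction and 8.83% lower. For Chrm3 that average joins a log2 fold change of -1.71 in Q175HD against WT and an uncalled -0.35 in Q175HD/SUMO-KO against SUMO-KO. With the cortical covariate Chrm3 was also not called in Q175HD against WT or in the average (edgeR adjusted p = 0.752 and 0.0743). The test was edgeR's quasi-likelihood test, fitted to all genes in all 12 libraries, with a call at a Benjamini-Hochberg adjusted p under 0.05. The comparisons share libraries and are not independent of each other.

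Loss of SUMO-1 changed no receptor past the threshold in edgeR. In SUMO-KO against WT, edgeR called 0 of 6, beside 0.045% of all genes in either direction and 0.0337% lower. An unadjusted p under 0.05 was found for 2 of 6, beside 13.5% of all genes. DESeq2 called 1, Chrm3, and 251 genes in all. Leaving out library 3 of SUMO-KO, edgeR called 3, Chrm1, Chrm3 and Adora1, all lower, and 1422 genes in all against 8 with every library. Leaving out library 3 of WT it called Chrm3, and 137 genes in all. In Q175HD/SUMO-KO against Q175HD, edgeR called 0 of 6, beside 0.0337% of all genes in either direction and 0.0112% lower. Adora2a alone had an unadjusted p under 0.05, beside 5.28% of all genes. DESeq2 also called 0. Averaged over Htt status, SUMO-1 loss gave 0 calls in edgeR, beside 0.0787% of all genes in either direction and 0.0225% lower. An unadjusted p under 0.05 was found for 3 of 6, beside 15.7% of all genes. DESeq2 called Chrm3, and 203 genes in all. The interaction, the test of whether the knock-in effect differs with and without SUMO-1, gave 0 calls among the 6 and 0% over all genes. Chrm3 and Adora1 had an unadjusted p under 0.05, beside 4.33% of all genes. DESeq2 called none of the 6 there, and 32 genes in all.

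The median log2 fold change of the 6 receptors was -0.57 in Q175HD against WT, -0.24 in Q175HD/SUMO-KO against SUMO-KO, -0.29 in SUMO-KO against WT and -0.14 in Q175HD/SUMO-KO against Q175HD. Over all genes tested the medians lay between 0.00 and 0.04 in these 4 comparisons.

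**Figure D2:**
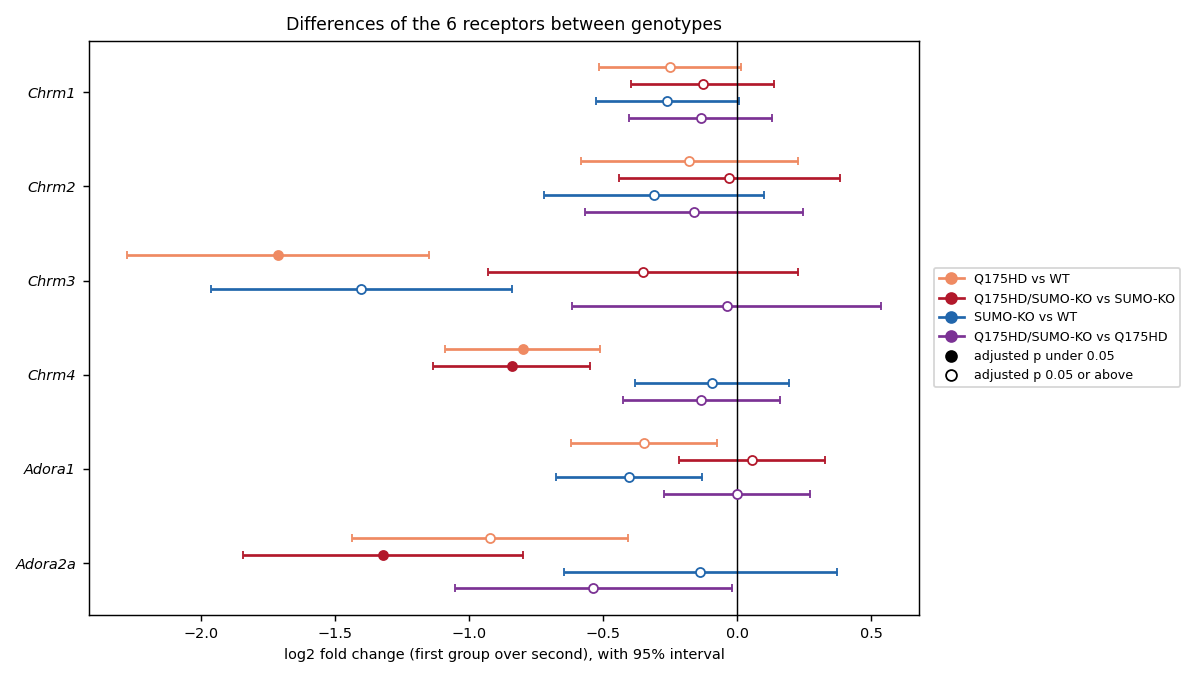
Log2 fold change of each receptor, first group over second, with its 95% interval, in 4 comparisons; filled points have an edgeR adjusted p under 0.05. Chrm4 sits near -0.80 in both knock-in comparisons and near 0 in both SUMO-1 comparisons, and Chrm3 is displaced in the comparisons against WT alone.

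Chrm1, the Gq-coupled receptor that closes M-current potassium channels in projection neurons, stood at 115, 120 and 120 CPM in Q175HD libraries, against 153, 128 and 141 CPM in WT. All Q175HD libraries lay below all WT libraries, as 5 of the 6 receptors did, beside 14.3% of all genes whose groups lay apart in that direction. The log2 fold change was -0.25, with a 95% interval of -0.52 to 0.01 and an adjusted p of 0.31 in edgeR. In the other pair Chrm1 stood at 109, 104 and 110 CPM in Q175HD/SUMO-KO, against 114, 94.6 and 144 CPM in SUMO-KO. These groups overlapped, with a log2 fold change of -0.13 and an interval of -0.39 to 0.14. Against WT, Q175HD/SUMO-KO lay below without overlap, as did 5 of the 6 receptors beside 13.6% of all genes, at -0.39 (interval -0.65 to -0.12, edgeR adjusted p = 0.0689). With the replicate number as a block over all 12 libraries, the value was -0.39 with an edgeR adjusted p of 0.0467. No label pairs the libraries. The pairing was taken from the data, and library 2 was rich in Xist in both groups.

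Chrm3, the other Gq-coupled muscarinic receptor, stood at 9.13, 8.41 and 10.03 CPM in Q175HD libraries, against 40.8, 32.8 and 17.1 CPM in WT. It fell by 69.5%, or -1.71 on the log2 scale (SE 0.26, edgeR adjusted p = 0.0037), and all Q175HD libraries lay below all WT libraries. It stood at 9.97, 10.4 and 6.61 CPM in Q175HD/SUMO-KO, against 11.7, 11.3 and 11.3 CPM in SUMO-KO. These groups were apart as well, as for 3 of the 6 receptors beside 11% of all genes, but the difference was small at -0.35 (interval -0.93 to 0.23, edgeR adjusted p = 0.445). In SUMO-KO against WT, Chrm3 was lower without overlap, as was Adora1, beside 6.54% of all genes, with a log2 fold change of -1.40 (SE 0.26) that missed the threshold in edgeR (adjusted p = 0.0725). In the authors' deposited table the same comparison had a log2 fold change of -1.43 and an adjusted p of 0.000108 for Chrm3. The interaction for Chrm3 was 1.36 (SE 0.37, unadjusted p = 0.00291, edgeR adjusted p = 0.757), and without library 3 of WT its edgeR adjusted p was 0.0258.

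Chrm3 was high in the WT libraries, where cortical neuron genes were high as well. The cause was not tested, and cortical markers and the WT genotype cannot be told apart here. Slc17a7, the vesicular glutamate transporter of cortical projection neurons, stood at 12.9 to 52.2 CPM in Q175HD, against 385, 245 and 106 CPM in WT libraries 1, 2 and 3, the order in which Chrm3 ran there. At the same 106 CPM of Slc17a7, library 2 of Q175HD/SUMO-KO had 10.4 CPM of Chrm3, against 17.1 CPM in library 3 of WT. Of the 20 cortical markers tested, 6 were lower and 0 higher in Q175HD against WT, with a median log2 fold change of -1.31. Across the 12 libraries Chrm3 and Slc17a7 had a Pearson correlation of 0.85, and 0.61 after the group means were taken out, as a description over libraries that share their scaling. With the mean level of the cortical markers as a covariate, Chrm3 in Q175HD against WT was at -0.64 (edgeR adjusted p = 0.752) and was no longer called. The covariate was 1.44, 1.00 and 0.31 in WT libraries 1, 2 and 3 and at most 0.23 elsewhere. A lost call therefore cannot tell cortical markers apart from genotype. The averaged knock-in effect on Chrm3, at -1.03 (edgeR adjusted p = 0.00262), was -0.61 with that covariate (edgeR adjusted p = 0.0743). Chrm3 in Q175HD/SUMO-KO against WT, at -1.75 with a call, was -0.95 with the covariate (edgeR adjusted p = 0.168) and -0.94 without WT libraries 1 and 2 (edgeR adjusted p = 0.0978). Without WT libraries 1 and 2, Chrm3 in Q175HD against WT was at -0.90 (edgeR adjusted p = 0.211), a fit that rests on 1 WT library, assumed to vary like the other groups.

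**Figure D3:**
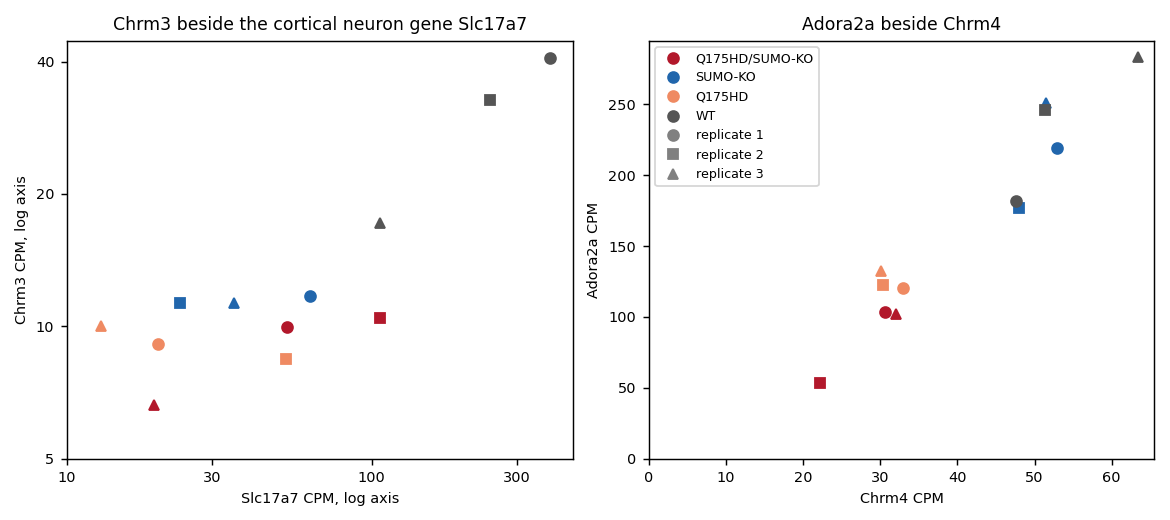
Left, Chrm3 against Slc17a7, both in CPM on log axes; right, Adora2a against Chrm4 in CPM on linear axes; each point is 1 of 12 libraries, coloured by genotype. The 3 WT libraries run up the left panel together from 106 to 385 CPM of Slc17a7, and in the right panel the 6 libraries with the knock-in lie apart from the 6 without it on both axes.

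Chrm2, the Gi-coupled receptor that serves as an autoreceptor on cholinergic terminals, passed the test in no comparison. It stood at 16.9, 19.7 and 15.6 CPM in Q175HD, against 24.8, 18.01 and 16.2 CPM in WT, and at 13.8, 16.7 and 16.1 CPM in Q175HD/SUMO-KO, against 11.5, 17.1 and 18.8 CPM in SUMO-KO. The groups overlapped in each of the 6 pairs of genotypes. Its log2 fold changes were -0.18 in Q175HD against WT (interval -0.58 to 0.23) and -0.03 in Q175HD/SUMO-KO against SUMO-KO (interval -0.44 to 0.38). Intervals of this width do not show that levels were equal. The 7 cholinergic interneuron markers tested gave 0 edgeR calls for the averaged knock-in effect, with a median log2 fold change of -0.31, all 7 negative.

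Chrm4, the Gi-coupled receptor that opposes dopamine signalling in direct pathway neurons, stood at 32.9, 30.3 and 30.1 CPM in Q175HD, against 47.6, 51.4 and 63.5 CPM in WT. It fell by 42.6%, or -0.80 on the log2 scale (SE 0.13, edgeR adjusted p = 0.00573). It stood at 30.6, 22.2 and 32.0 CPM in Q175HD/SUMO-KO, against 53.0, 48.0 and 51.4 CPM in SUMO-KO. It fell there by 44.1%, or -0.84 on the log2 scale (SE 0.14, edgeR adjusted p = 0.00237). Every library with the knock-in lay below every library without it, as for 3 of the 6 receptors beside 4.35% of all genes. The interaction was -0.04 (interval -0.45 to 0.37, edgeR adjusted p = 0.997). SUMO-1 loss left Chrm4 at -0.09 against WT (interval -0.38 to 0.19) and at -0.13 in Q175HD/SUMO-KO against Q175HD (interval -0.43 to 0.16), neither past the threshold in edgeR (adjusted p = 0.776 and 0.909).

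Adora1, the Gi-coupled adenosine receptor found on many neurons and their terminals, stood at 113, 131 and 126 CPM in Q175HD, against 179, 151 and 142 CPM in WT. The groups lay apart, with a log2 fold change of -0.35 (interval -0.62 to -0.08) that missed the threshold in edgeR (adjusted p = 0.156). In the other pair it stood at 129, 111 and 131 CPM in Q175HD/SUMO-KO, against 115, 101 and 141 CPM in SUMO-KO. There the groups overlapped and the difference was 0.06 (interval -0.22 to 0.33). In SUMO-KO against WT, Adora1 lay below without overlap at -0.40 (interval -0.68 to -0.13, edgeR adjusted p = 0.242), and without library 3 of SUMO-KO its edgeR adjusted p was 0.0258. Its level was therefore highest in WT and its libraries overlapped between the other 3 genotypes. WT library 1, with the most cortical marker reads, was also the highest library for Adora1, Chrm1, Chrm2 and Chrm3. With the group means taken out, Pearson correlations with Slc17a7 were 0.16 for Adora1, 0.09 for Chrm1 and 0.23 for Chrm2, against 0.61 for Chrm3. With the cortical markers as a covariate, Chrm4 was the only receptor called in Q175HD against WT, and calls over all genes went from 699 to 66. That covariate was highest in the WT libraries, so a lost call cannot tell cortical markers apart from genotype.

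Adora2a, the Gs- and Golf-coupled receptor of indirect pathway neurons, stood at 104, 53.1 and 102 CPM in Q175HD/SUMO-KO libraries 1, 2 and 3, against 219, 177 and 251 CPM in SUMO-KO. It fell by 60.0%, or -1.32 on the log2 scale (SE 0.24, edgeR adjusted p = 0.00682), and the groups lay apart. It stood at 120, 123 and 133 CPM in Q175HD, against 182, 246 and 283 CPM in WT. These groups lay apart too, and the log2 fold change of -0.92 (SE 0.23) was just short of the threshold in edgeR (adjusted p = 0.0533). In the authors' deposited table, made with DESeq2, the same comparison had a log2 fold change of -0.92 and an adjusted p of 0.00242. Against WT, Q175HD/SUMO-KO was at -1.46 (SE 0.24, edgeR adjusted p = 0.00449). Averaged over SUMO-1 status the knock-in effect was -1.12 (SE 0.17, edgeR adjusted p = 0.00112).

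Within the knock-in, Adora2a was lower in all 3 Q175HD/SUMO-KO libraries than in the Q175HD libraries, as was Chrm1, beside 6.65% of all genes. The log2 fold change was -0.54 (interval -1.05 to -0.02, unadjusted p = 0.0427, edgeR adjusted p = 0.903). Leaving out 1 library at a time gave log2 fold changes between -0.72 and -0.29, and the smallest change came without library 2 of Q175HD/SUMO-KO, the one low for projection neuron genes. The interaction for Adora2a was -0.40 (interval -1.13 to 0.32, edgeR adjusted p = 0.997).

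Ratios of 2 receptors within a library need no scaling between libraries. The log2 ratio of Chrm4 to Chrm1 reads averaged -1.93 ± 0.10 in Q175HD and -1.39 ± 0.27 in WT, and -1.94 ± 0.24 in Q175HD/SUMO-KO and -1.19 ± 0.26 in SUMO-KO (SD, n = 3 each). The knock-in lowered it by 0.65 on average (two-sided exact permutation test within SUMO-1 status, p = 0.005, the smallest that 400 permutations can give, adjusted p = 0.03 over 6 tests). The log2 ratio of Adora2a to Adora1 averaged 0.02 ± 0.10 in Q175HD and 0.58 ± 0.50 in WT, and -0.58 ± 0.42 in Q175HD/SUMO-KO and 0.86 ± 0.06 in SUMO-KO. The knock-in lowered it by 1.00 on average (exact permutation test, p = 0.015, adjusted p = 0.045), although WT library 1, at 0.03, lay among the Q175HD libraries. The difference was -0.55 in Q175HD against WT and -1.44 in Q175HD/SUMO-KO against SUMO-KO. Both adjusted p-values became 0.06 without library 2 of Q175HD (exact permutation test), where the differences were -0.64 for Chrm4 to Chrm1 and -0.97 for Adora2a to Adora1. Fewer libraries allow fewer permutations, so the p-values with and without that library are not on the same scale.

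Adora2a and Chrm4 both fell with the knock-in, by 1.12 and 0.82 on the log2 scale. Their log2 ratio averaged 2.01 ± 0.14 in Q175HD and 2.12 ± 0.17 in WT, and 1.56 ± 0.27 in Q175HD/SUMO-KO and 2.07 ± 0.20 in SUMO-KO (SD, n = 3 each). The difference was -0.11 in Q175HD against WT and -0.51 in Q175HD/SUMO-KO against SUMO-KO. The averaged knock-in difference of -0.31 lay at the threshold without passing it (exact permutation test, p = 0.025, adjusted p = 0.05 over 6 tests). Without library 3 of Q175HD its adjusted p was 0.04, and without library 1 of WT it was 0.02 (exact permutation test). For this ratio SUMO-1 loss gave -0.25 (exact permutation test, p = 0.085, adjusted p = 0.128). SUMO-1 loss changed the ratio of Chrm4 to Chrm1 by 0.09 and that of Adora2a to Adora1 by -0.16 (exact permutation test, adjusted p = 0.52 for both). Between single pairs of groups, 3 libraries against 3, the smallest p that an exact permutation test allows is 0.1.

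**Figure D4:**
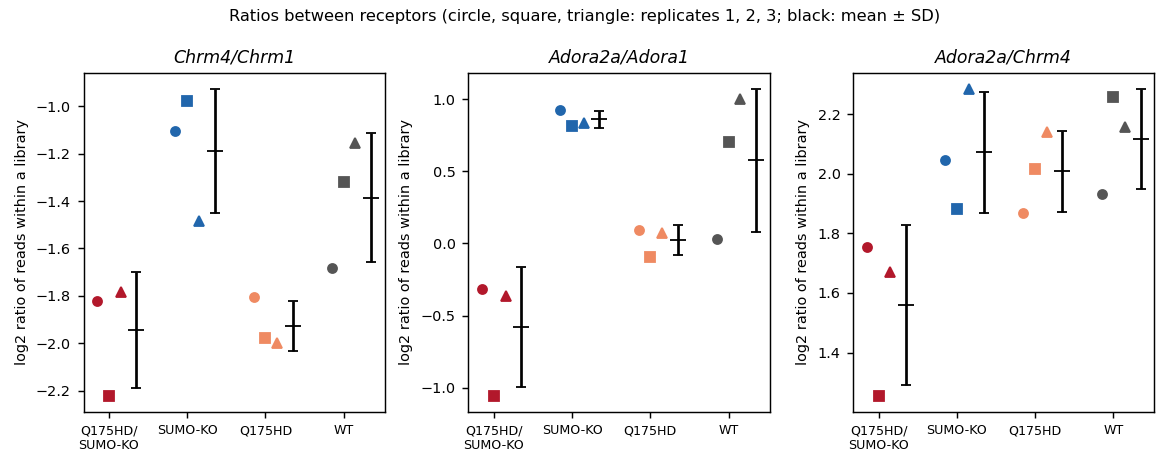
Log2 ratio of the reads of 2 receptors within each library (vertical axes), by genotype, with the mean and SD of each group in black. The ratio of Chrm4 to Chrm1 lies between -2.22 and -1.78 in the 6 libraries with the knock-in and between -1.68 and -0.98 in the 6 without it.

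Across the 12 libraries the log2 CPM of Chrm4 and Adora2a had a Pearson correlation of 0.96, and 0.89 with the group means taken out, and that of Chrm1 and Adora1 0.88 and 0.84. These are descriptions over 12 libraries that share their scaling. Among 11874 genes with a mean of at least 50 reads, the patterns most like that of Chrm4 were those of Sec14l1 (r = 0.99), Plcb1 (0.99) and the sodium channel subunit Scn4b (0.98). Those most like Adora2a were the phosphodiesterase Pde1b (0.99), Scn4b (0.99) and the potassium channel Kcnq3 (0.98). For Chrm1 they included Mgll (0.97) and Git1 (0.97), and for Adora1 Ephb6 (0.95), B4galnt1 (0.93) and Synpo (0.93). Chrm3 was nearest to Sel1l3 (0.96), Igsf21 (0.95) and Scube1 (0.94), and Chrm2 to Itpk1 (0.92), Tprn (0.92) and Cpm (0.90).

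Chrm4 and Adora2a fell beside genes of the neurons that carry them. Of 20 markers shared by striatal projection neurons, 17 fell and 0 rose for the averaged knock-in effect in edgeR, with a median log2 fold change of -0.77, against 0.00 over all genes tested. Their summed level was 8358 to 8873 CPM in Q175HD and 12950 to 15910 CPM in WT, and 5736 to 8429 CPM in Q175HD/SUMO-KO and 13650 to 15860 CPM in SUMO-KO. Of 7 indirect pathway markers tested, without Adora2a, 5 fell (median -0.95), among them the enkephalin precursor Penk at -1.23 and the dopamine receptor Drd2 at -0.95. Of 9 direct pathway markers, without Chrm4, 3 fell (median -0.18), among them the dopamine receptor Drd1 at -0.91 and the dynorphin precursor Pdyn at -1.01. The direct pathway list was mixed, with 6 of 9 log2 fold changes negative and 0 genes called higher. In Q175HD against WT, where 6 of the 9 were negative as well, Isl1, Ebf1 and Eya1 were at 0.32, 0.27 and 0.16, none called. In bulk RNA, fewer cells of a type and less RNA per cell cannot be told apart.

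The genes around the receptors are described by lists, which share some genes with the marker lists. Together the lists of signalling genes held 96 genes tested, of which 7 rose and 29 fell for the averaged knock-in effect in edgeR, where 16.9% of all genes were called and 8.83% fell. Without WT libraries 1 and 2, 2 rose and 20 fell of 100 tested, and 1083 genes were called in all against 3001. The shares of single lists are to be read against these, and 1 fallen gene of 10 is close to the share over all genes.

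On the side of the transmitters, 1 of 10 genes of acetylcholine synthesis, transport and breakdown fell and 1 rose. Prima1, which anchors acetylcholinesterase in the membrane, fell by 0.82 on the log2 scale (SE 0.09, edgeR adjusted p = 9.16e-05). It averaged 13.3 ± 0.6 CPM in Q175HD and 22.4 ± 3.0 CPM in WT, and 10.9 ± 1.5 CPM in Q175HD/SUMO-KO and 19.98 ± 1.73 CPM in SUMO-KO (SD, n = 3 each). Chkb, a choline kinase, rose by 0.45 (SE 0.07, edgeR adjusted p = 0.00102). Chat, which makes acetylcholine, was at -0.31 (SE 0.18, edgeR adjusted p = 0.25), the vesicular transporter Slc18a3 at -0.62 (adjusted p = 0.0785), the choline transporter Slc5a7 at -0.31 (adjusted p = 0.112) and Ache at 0.00 (adjusted p = 0.994). Of 5 nicotinic receptor subunits tested, Chrna4 fell by 1.35 (SE 0.24, edgeR adjusted p = 0.00354) and Chrna7 by 0.64 (SE 0.13, edgeR adjusted p = 0.00545). Chrna4 averaged 7.98 CPM in Q175HD/SUMO-KO, 14.3 CPM in SUMO-KO and 8.58 CPM in Q175HD, against 30.7 CPM in WT, and like Chrm3 was highest there.

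Of 19 genes of adenosine production, uptake and breakdown, 4 rose and 2 fell for the averaged knock-in effect, and without WT libraries 1 and 2 1 rose and 0 fell. Nt5e, the surface enzyme that makes adenosine from AMP, fell by 0.53 (SE 0.15, edgeR adjusted p = 0.0287), and Entpd1, which breaks ATP down to AMP, fell by 0.42 (SE 0.09, edgeR adjusted p = 0.00647). The ectoenzyme Enpp3 rose by 1.60 (SE 0.26, edgeR adjusted p = 0.00113), at a low level, with 2.05 ± 0.20 CPM in Q175HD and 0.537 ± 0.210 CPM in WT. Enpp1 rose by 0.66 (edgeR adjusted p = 0.0055), the adenosine deaminase Ada by 1.07 (edgeR adjusted p = 0.0426) at 0.499 to 1.28 CPM on average, and Ahcy by 0.34 (edgeR adjusted p = 0.0353). Adk, the kinase that clears adenosine inside cells, was at -0.03 (SE 0.08, edgeR adjusted p = 0.844), with group means of 47.6 to 49.3 CPM.

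The remaining receptors of both families were scarce. Chrm5 had 14 to 47 reads summed over the 3 libraries of a group and did not pass the filter. Adora2b was at 0.38 (SE 0.21, edgeR adjusted p = 0.228) and Adora3 at 0.87 (SE 0.30, edgeR adjusted p = 0.0635) for the averaged knock-in effect, with group means of 2.1 to 3.19 CPM and 0.406 to 0.900 CPM.

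Downstream of Adora2a, 8 of 19 genes of the Gs, Golf and adenylyl cyclase list fell and 0 rose (median -0.26). Adcy5, the main adenylyl cyclase of striatal projection neurons, averaged 847 ± 43 CPM in Q175HD and 1514 ± 167 CPM in WT, and 681 ± 98 CPM in Q175HD/SUMO-KO and 1483 ± 246 CPM in SUMO-KO (SD, n = 3 each). It fell by 0.98 (SE 0.10, edgeR adjusted p = 3.78e-05). Ppp1r1b, a phosphoprotein regulated by dopamine, fell by 0.74, Adcy1 by 0.61, Adcy9 by 0.44 and Adcy3 by 0.38, with edgeR adjusted p-values of 0.00336, 0.00182, 0.00327 and 0.0105. Adcy1, like Chrm3, was high in WT, with log2 fold changes of -0.83 in Q175HD against WT (edgeR adjusted p = 0.0086), -0.39 in Q175HD/SUMO-KO against SUMO-KO (edgeR adjusted p = 0.13) and -0.59 in SUMO-KO against WT (edgeR adjusted p = 0.182). Gnal, the alpha subunit of Golf, was at -0.26 (SE 0.11, edgeR adjusted p = 0.112).

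Downstream of Chrm4 and Adora1, 1 of 12 genes of the Gi, Go and GIRK channel list rose and 3 fell (median -0.08), and 0 rose and 0 fell without WT libraries 1 and 2. Gnai2 rose by 0.43 (edgeR adjusted p = 0.00278), and the subunits Gnb5 and Gnao1 fell by 0.36 and 0.32 (edgeR adjusted p = 0.00712 and 0.0211). Kcnj6, a GIRK channel subunit, fell by 1.30 (SE 0.36, edgeR adjusted p = 0.0331), with 3.99 to 6.46 CPM in Q175HD against a wide spread of 10.7 to 33.0 CPM in WT.

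Downstream of Chrm1 and Chrm3, 8 of 14 genes of the Gq, phospholipase C and M-current list fell and 0 rose (median -0.42). Protein kinase C beta, Prkcb, fell by 0.72 (SE 0.08, edgeR adjusted p = 6.49e-05), the phospholipase Plcb1 by 0.58 (SE 0.07, edgeR adjusted p = 0.000136) and the calcium release channel Itpr1 by 0.60 (SE 0.08, edgeR adjusted p = 0.00018). Plcb1 averaged 328 ± 3 CPM in Q175HD and 466 ± 23 CPM in WT, and 300 ± 40 CPM in Q175HD/SUMO-KO and 469 ± 5 CPM in SUMO-KO. The M-current channel genes Kcnq5 and Kcnq3, whose channels are closed by muscarinic receptors of the Gq type, fell by 0.54 and 0.42 (edgeR adjusted p = 0.000515 and 0.00154). Gnaq, the alpha subunit of Gq, was at 0.04 (SE 0.08, edgeR adjusted p = 0.77).

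Among regulators that end receptor signalling, 5 of 15 genes fell and 1 rose (median -0.11). The fallen ones were all RGS genes, whose proteins speed the shut-off of G proteins: Rgs9 by 1.12, Rgs14 by 1.095, Rgs4 by 0.95, Rgs6 by 0.44 and Rgs7 by 0.21, with edgeR adjusted p-values of 8.98e-05, 1.96e-05, 0.00133, 0.00489 and 0.0439. The receptor kinase Grk6 rose by 0.24 (edgeR adjusted p = 0.0136), and the arrestins Arrb1 and Arrb2 were at -0.21 and 0.12 (edgeR adjusted p = 0.0612 and 0.381).

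Loss of SUMO-1 called 0 of these 96 genes in edgeR in SUMO-KO against WT, with 16 at an unadjusted p under 0.05 beside 13.5% of all genes, and DESeq2 called 6 of the 89 genes for which it gave an adjusted p. In Q175HD/SUMO-KO against Q175HD, edgeR called 0 with 9 at an unadjusted p under 0.05 beside 5.28% of all genes, and DESeq2 called 0.

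**Figure D5:**
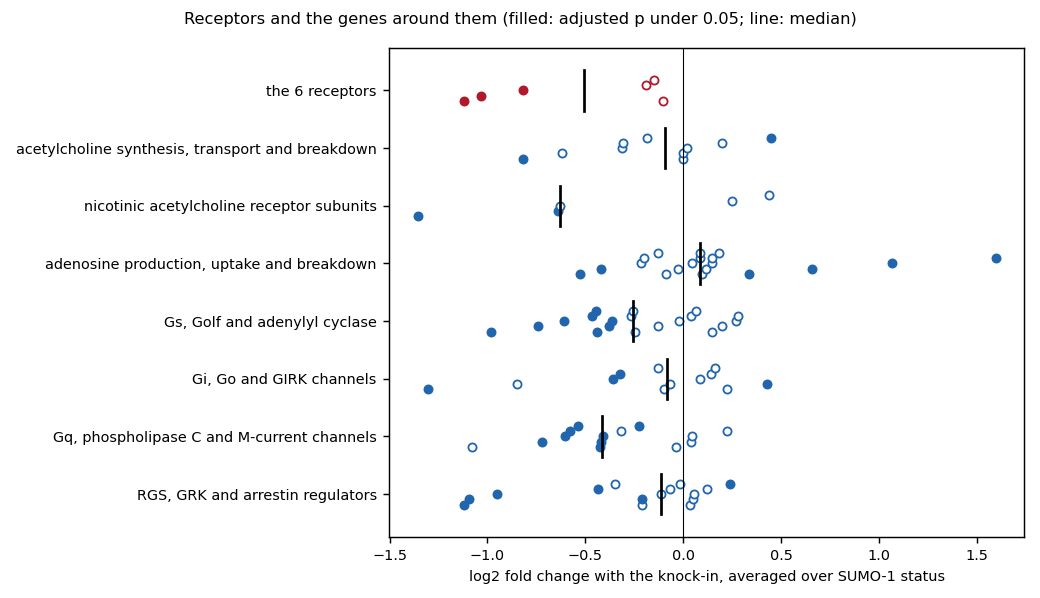
Log2 fold change for the averaged knock-in effect (horizontal axis), of the 6 receptors (top row) and of the tested genes of 7 lists; filled points have an edgeR adjusted p under 0.05 and the vertical line is the median of a row. The median is -0.42 for the Gq list, -0.26 for the Gs list and 0.09 for the adenosine list, and the receptors split into 3 genes between -1.12 and -0.82 and 3 between -0.19 and -0.10.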

How the data were processed

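Total RNA depleted of ribosomal RNA was sequenced with a directional kit, per the labels' protocols. Per the submitters' processing notes, cutadapt 2.10, STAR 2.5.2a, Bowtie 1.1.2 and DESeq2 were used, with the mm10 and GRCm38 builds. No source used here gives the counting tool or its strand setting. The authors deposited raw read counts per gene and TPM per library, and tables of their own comparisons with log2 fold changes and p-values from which single values are quoted by name.

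The counts were scaled by TMM and tested in edgeR 4.0.16 (R 4.3.3), with genes kept by filterByExpr at a minimum count of 10 and a minimum total of 15. One fit with 4 group means over 12 libraries gave every contrast, with p-values adjusted over 17796 genes by the Benjamini-Hochberg method. CPM use TMM library sizes, SE is the log2 fold change over the root of F, and errors are SD with n = 3 per group. The script was tested on simulated data. Genes are named by membership of the receptor set or of the lists. The 6 genes and all lists were chosen with earlier results of these data known. Alternatives were median-ratio scaling, no low-count filter, the replicate number as a block, a term for Xist-positive libraries, the cortical marker mean as a covariate, fits of the compared groups alone, each library left out and DESeq2 1.42.0. A fit without WT libraries 1 and 2 was added after seeing the data. Same-numbered libraries of Q175HD/SUMO-KO and WT had residual correlations of 0.177, 0.316 and 0.105. All were over the threshold of 0.1, as were 11 of 18 same-numbered pairs over every comparison. No label pairs them, and the fit with 4 group means had no block. Precision is limited by 3 libraries per group and, for Chrm3 and Chrm2, by 109 to 487 reads. The level of the knocked-out gene and some genes of the lists are not reported here.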

Additional observations from a re-analysis of the deposited data

How the results depend on the processing

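Over 54 receptor results and 828 alternatives, 752 kept direction and side of the threshold, 26 passed the threshold newly, 5 lost it and 45 changed sign, in 19 results, none of them called. Chrm4 and Adora2a kept every call they had in every alternative run, with edgeR or DESeq2 adjusted p up to 0.0455 for Chrm4 and 0.043 for Adora2a. The number of receptors called in Q175HD against WT, 2, was 1 with the cortical covariate and 4 with the compared groups alone. Adora2a was added to the 2 with the replicate block, the sex term (edgeR adjusted p = 0.0185) and DESeq2 (DESeq2 adjusted p = 0.00249). In Q175HD/SUMO-KO against WT, 3, it was 4, with Chrm1 added, under no filter, the replicate block, the sex term, the compared groups alone and DESeq2, and 2, with Chrm3 lost, with the cortical covariate and without WT libraries 1 and 2. In SUMO-KO against WT, 0, it was 1 with no filter, 1 with DESeq2 and 0 to 3 without single libraries. In Q175HD against SUMO-KO, 1, it was 2 with the replicate block, 2 with the sex term, 2 with the cortical covariate, 2 with the compared groups alone and 2 with DESeq2. For SUMO-1 loss averaged, 0, it was 1 with DESeq2 and 0 to 1 without single libraries, and for the interaction, 0, it was 0 to 1. The replicate block moved Adora2a in Q175HD against WT to an adjusted p of 0.0348. In the other comparisons same-numbered libraries had residual correlations of -0.228 to 0.574, 8 of 15 over 0.1. The numbers did not pair them by that threshold, although 9 of 12 libraries correlated best with their own number. Genes called in all moved as well: 699 in Q175HD against WT became 66 with the cortical covariate, 68 without WT libraries 1 and 2 and 1297 with the compared groups alone.

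Without single libraries, the knock-in difference in the log2 ratio of Adora2a to Adora1 ran from -1.13 to -0.88, of Chrm4 to Chrm1 from -0.72 to -0.58 and of Adora2a to Chrm4 from -0.36 to -0.23, with adjusted p from 0.015 to 0.06, 0.015 to 0.06 and 0.02 to 0.12 (exact permutation test).

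Signs changed for these uncalled log2 fold changes. Adora1 in Q175HD/SUMO-KO against Q175HD was -0.033 with median-ratio scaling, -0.047 with no filter, -0.00525 with the replicate block, -0.037 with the cortical covariate, -0.013 with the compared groups alone and -0.034 with DESeq2. With the sex term, Q175HD against SUMO-KO was -0.011 for Adora1 and -0.059 for Chrm1, and the Chrm4 interaction was 0.026. With the cortical covariate the interaction was 0.37 for Adora2a, -0.45 for Chrm2 and 0.47 for Chrm4, and Chrm2 was 0.094 for the averaged knock-in effect, 0.32 in Q175HD against WT, 0.056 in Q175HD/SUMO-KO against WT and 0.19 for SUMO-KO set against WT. Without WT libraries 1 and 2 the interaction was -0.125 for Chrm2 and 0.20 for Chrm4, and Chrm2 was 0.041 for the averaged knock-in effect and 0.10 in Q175HD against WT. Without single libraries the ranges were, in Q175HD against SUMO-KO, -0.049 to 0.20 for Adora1, -0.12 to 0.19 for Chrm1 and -0.047 to 0.28 for Chrm2. In Q175HD/SUMO-KO against Q175HD they were -0.085 to 0.074 for Adora1, -0.16 to 0.11 for Chrm3 and -0.27 to 0.011 for Chrm4. In Q175HD/SUMO-KO against SUMO-KO they were -0.049 to 0.20 for Adora1, -0.26 to 0.051 for Chrm1 and -0.21 to 0.12 for Chrm2. In SUMO-KO against WT they were -0.30 to 0.011 for Adora2a and -0.18 to 0.036 for Chrm4, and in Q175HD against WT -0.30 to 0.024 for Chrm2. For the interaction they were -0.0093 to 0.30 for Chrm1, -0.0499 to 0.30 for Chrm2 and -0.17 to 0.11 for Chrm4. The causes were not tested.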
